A study of Mus musculus with 6 samples.

Results

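Of the nuclear genes that encode subunits of the membrane-embedded part and the peripheral stalk of ATP synthase, 10 were examined in metaphase II (MII) oocytes matured in vitro (IVM) or in vivo (IVO). The 10 genes were chosen by name from the 60193 features of the deposited table, of which 53700 carry an Ensembl identifier, and comprise the c-ring paralogs Atp5g1, Atp5g2 and Atp5g3, the stalk subunits Atp5h and Atp5j, and the small membrane subunits Atp5j2, Atp5k, Atp5l, Atp5md and Atp5mpl. The oocytes came from ICR mice aged 42 to 45 weeks, an outbred stock used here as a natural model of advanced reproductive age, and no genetic change is given for either group. All mice were primed with PMSG. IVM oocytes were taken from the ovary, stripped of cumulus cells and then matured over 12 h of culture in M16. Those of the IVO group were taken from the oviduct 14 h after an injection of hCG, and their cumulus cells were then removed with hyaluronidase. The groups thus differ in hormone exposure, time and the presence of cumulus cells during maturation, as well as in where they matured. Each of the 6 samples, 3 per group, was a pool of 20 oocytes from 3 mice. A pool cannot show how single oocytes or single mice vary, and lower RNA per oocyte cannot be told apart from fewer oocytes that hold the transcript.

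ATP synthase uses the flow of protons across the inner mitochondrial membrane to make ATP. A ring of c subunits turns in the membrane together with the central stalk, the F1 head carries out the synthesis, and the peripheral stalk holds the head still. The small membrane subunits surround the base of the stalk and help to join complexes into dimers that shape the cristae. The oocyte depends largely on its mitochondria for ATP during maturation, while its transcription is nearly silent and its stored messenger RNAs are used and degraded.

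Values are FPKM as deposited, fragment numbers scaled to transcript length and library size. The median FPKM of the tested genes was 9.63 to 10.4 in IVM and 6.66 to 7.13 in IVO. Steps between low FPKM values gave an inferred depth of 16500000 to 19400000 fragments in IVM and 17900000 to 18400000 in IVO. The same steps gave a mean fragment length of 209 to 218 bases in IVM and 251 to 272 bases in IVO. Fragment length thus moved with the group, and its part in the results was not tested beyond the alternatives given with them. At this depth 3 fragments on a transcript of 600 bases correspond to 0.398 to 0.475 FPKM in IVM and 0.474 to 0.496 FPKM in IVO, by counting error alone. All 10 oocyte markers were detected, with a summed level of 5165 to 7239 FPKM in IVM and 2863 to 3374 FPKM in IVO. Of 13 cumulus and granulosa markers, 2 reached 1 FPKM in any sample (Cyp19a1 and Fshr), Amh and Areg were listed at 0 throughout, and the list summed to 24.4 to 33.8 FPKM in IVM and 31.1 to 35.8 FPKM in IVO. Blood and immune markers summed to at most 2.72 FPKM in IVM and 7.89 FPKM in IVO, and oviduct markers to at most 3.16 and 5.71 FPKM. The part of these differences in the results was not tested.

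The c subunit is encoded by 3 genes whose proteins differ in the leader that directs import into mitochondria. Atp5g1 lies on chromosome 11 of GRCm39 from 95959678 to 95966757, Atp5g2 on chromosome 15 from 102571295 to 102580787, and Atp5g3 on chromosome 2 from 73738779 to 73741933, each on the minus strand with 5 exons in its canonical transcript. The encoded proteins have 136, 146 and 141 residues. Their last 75 residues were identical in every pair, and the differences lie in leaders of 61, 71 and 66 residues. The coding sequences of those 75 residues with the stop codon, 228 bases read from the reference genome in the order of transcription, are shown because they encode the same residues with different bases. Capitals mark the 58 positions at which the 3 genes do not all carry the same base.
Atp5g1: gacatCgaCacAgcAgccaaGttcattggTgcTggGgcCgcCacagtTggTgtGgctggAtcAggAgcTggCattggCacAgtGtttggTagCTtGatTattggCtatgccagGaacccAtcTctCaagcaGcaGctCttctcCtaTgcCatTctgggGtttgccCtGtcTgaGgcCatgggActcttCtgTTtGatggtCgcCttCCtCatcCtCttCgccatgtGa
Atp5g2: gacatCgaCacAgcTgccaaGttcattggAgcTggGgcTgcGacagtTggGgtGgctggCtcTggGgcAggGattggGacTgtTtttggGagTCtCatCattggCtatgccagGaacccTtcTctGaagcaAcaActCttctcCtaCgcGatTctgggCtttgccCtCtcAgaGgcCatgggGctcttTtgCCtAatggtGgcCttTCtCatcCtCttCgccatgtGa
Atp5g3: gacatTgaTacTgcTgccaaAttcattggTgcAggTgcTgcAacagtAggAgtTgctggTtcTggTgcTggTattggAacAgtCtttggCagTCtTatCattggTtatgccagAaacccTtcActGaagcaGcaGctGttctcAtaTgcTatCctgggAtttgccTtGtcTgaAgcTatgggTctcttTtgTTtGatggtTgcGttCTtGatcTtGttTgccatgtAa
Although the encoded 75 residues are the same, 34 of the 228 bases differed between Atp5g1 and Atp5g2, 46 between Atp5g1 and Atp5g3, and 49 between Atp5g2 and Atp5g3. The longest run shared by a pair over its coding sequence was 21 bases, for Atp5g1 and Atp5g2, which is well short of the sequenced reads of 150 bases.

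Of the c-ring paralogs, Atp5g1 was lower in IVO, and neither Atp5g2 nor Atp5g3 was called. Atp5g1 had 30.9, 29.6 and 26.5 FPKM in IVM and 13.3, 10.6 and 10.6 FPKM in IVO. All IVO samples lay below all IVM samples, at a mean of 29.0 ± 2.27 FPKM in IVM against 11.5 ± 1.59 in IVO (SD, n = 3 each). Over the 18818 genes with a mean of at least 1 FPKM, limma on log2(FPKM + 1) gave Atp5g1 a log2FC of -1.27 (IVO minus IVM, standard error 0.19, Benjamini-Hochberg adjusted p = 0.00527). This scale understates the change of low genes. A gene was called at |log2FC| of at least 1 with an adjusted p under 0.05.

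Atp5g2 had 32.4, 13.97 and 14.9 FPKM in IVM and 6.78, 9.22 and 9.77 FPKM in IVO. IVM replicate 1 stood at more than the sum of the other IVM samples, and the groups nevertheless did not overlap. The log2FC was -1.07 (standard error 0.34, limma adjusted p = 0.0625), so Atp5g2 was not called, and it was -0.70 without IVM replicate 1. Atp5g3 had 19.9, 19.8 and 19.8 FPKM in IVM and 20.6, 22.4 and 20.1 FPKM in IVO. Its IVM samples varied by a coefficient of variation of 0.462%, the smallest among the members, and its IVO samples all lay slightly above them. At its listed length Atp5g3 had about 166 to 196 fragments in IVM and 171 to 189 in IVO. For the 166 of IVM replicate 1 the exact Poisson interval was 142 to 193. The closeness of its IVM values and the gap between its groups thus lie within counting error. The log2FC of 0.08 did not pass the test (limma adjusted p = 0.781), with a 95% interval from -0.33 to 0.48.

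**Figure D1:**
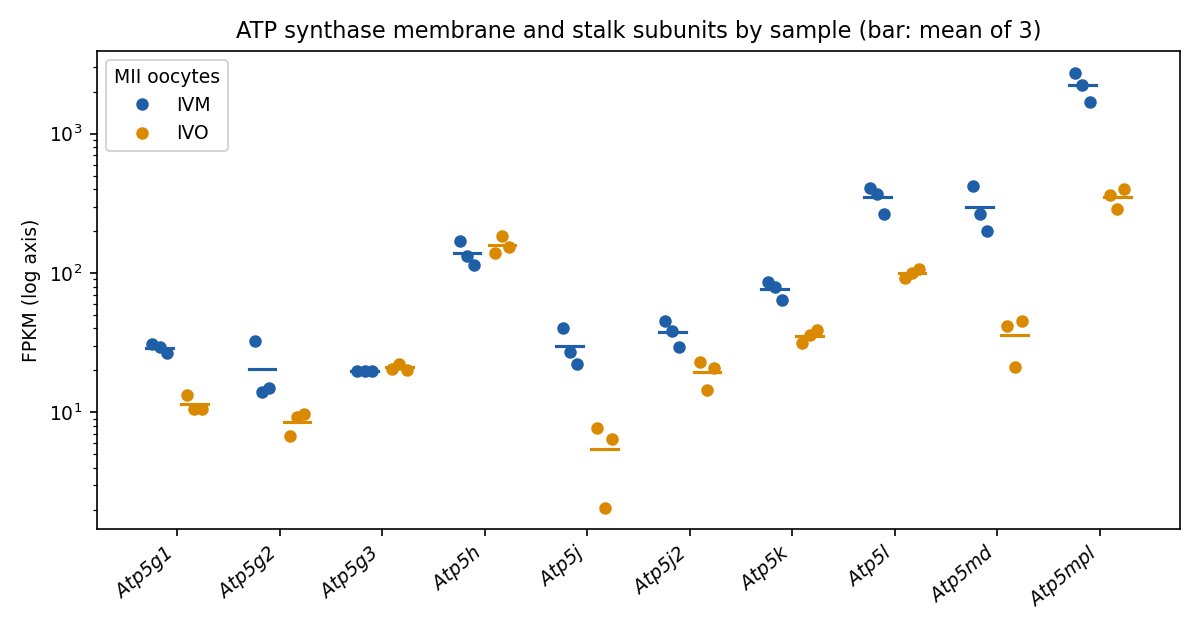
FPKM of each of the 10 genes on a log axis in every sample, with IVM in blue and IVO in orange, points in replicate order from left to right and a bar at the mean of 3 samples. The groups are apart for 9 of the 10 genes, with Atp5h the exception. Atp5g3 is the gene whose IVO samples lie above its IVM samples, by a gap within counting error.

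The share of each paralog in the summed c-ring FPKM is not changed by a scaling factor common to a library, but it does change with corrections that act on each gene, such as the removal of the length trend, under which shares were not computed. Atp5g3 made up 24.0%, 31.2% and 32.4% of the sum in IVM and 50.6%, 53.1% and 49.6% in IVO. Its mean share was 29.2% ± 4.55 in IVM and 51.1% ± 1.78 in IVO (SD, n = 3), with no overlap. A two-sided exact permutation test gave p = 0.1 for 3 samples against 3, the smallest it allows (0.15 adjusted over the 3 paralogs), so this design cannot pass the threshold. The share of Atp5g1 was 42.4% ± 4.88 in IVM and 28.0% ± 4.15 in IVO, again without overlap (exact permutation p = 0.1, adjusted p = 0.15). Atp5g2 held 28.4% ± 9.14 and 20.9% ± 3.84, and its groups overlapped (exact permutation p = 0.2). The difference in its share of -7.54 percentage points became -2.31 without IVM replicate 1.

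Pairwise, the log2 ratio of Atp5g1 to Atp5g3 was 0.61, 0.56 and 0.40 in IVM and -0.59, -1.02 and -0.86 in IVO. On the FPKM scale Atp5g1 was the higher of the pair in all IVM samples and the lower in all IVO samples, with a mean difference of -1.35 (exact permutation p = 0.1, adjusted p = 0.15 over 3 pairs). The ratio of Atp5g2 to Atp5g3 differed by -1.15 (exact permutation p = 0.1), and that of Atp5g1 to Atp5g2 by -0.20 with overlapping groups (exact permutation p = 0.9). The latter turned to 0.027 without IVM replicate 2. Together the c-ring genes summed to 83.2, 63.4 and 61.2 FPKM in IVM and 40.7, 42.2 and 40.5 FPKM in IVO, with an SD of 12.1 FPKM in IVM and 0.909 FPKM in IVO. Without IVM replicate 1 the SD in IVM was 1.52 FPKM.

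**Figure D2:**
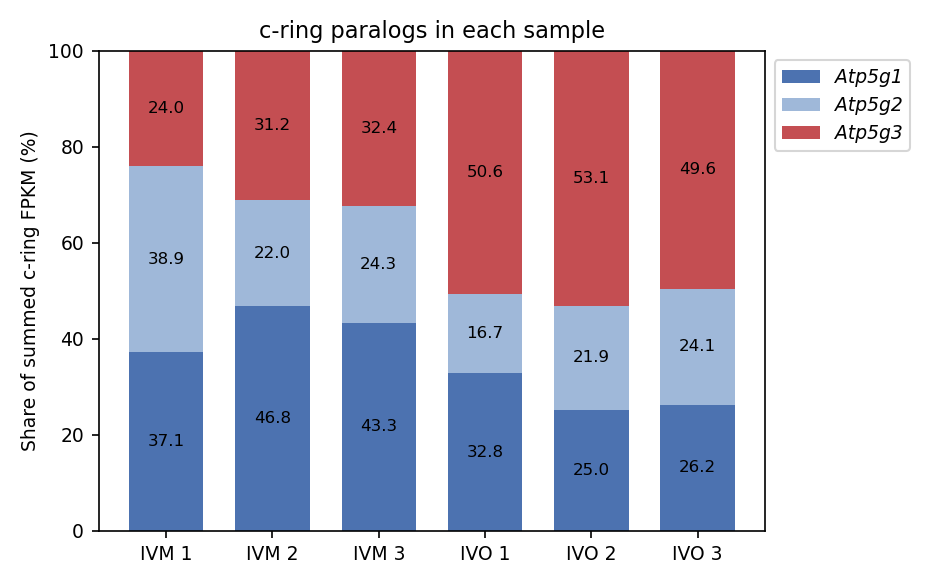
Percent of the summed FPKM of the 3 c-ring paralogs held by each in every sample, as stacked bars from 0 to 100%. Atp5g3 holds 24.0% to 32.4% in IVM and 49.6% to 53.1% in IVO.

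The absolute size of these shares depends on the length used for each gene. Whether the FPKM of a gene with many transcripts used its listed length was not tested. Atp5g1 is listed at 4715 bases, while its canonical transcript has 612, and the other members are listed at 352 to 955 bases. A longer listed length lowers the FPKM of a gene, and for short genes such as Atp5g2, listed at 441 bases, the correction also depends on fragment length, which differed between the groups. When FPKM was multiplied by the listed length, the difference in the share of Atp5g3 was 11.9 percentage points in place of 21.9. That of Atp5g2 was -0.26 in place of -7.54. The log2 ratio of Atp5g1 to Atp5g3 then differed by -1.42. A fixed length per gene cannot alter that difference except through the pseudocount, so it is no test of length. The switch in which of the pair is higher depends on the length used. In approximate fragments at the listed length, Atp5g1 had 2293 to 2590 in IVM and 844 to 1091 in IVO. These stood above the 166 to 196 and 171 to 189 of Atp5g3 in every sample. A shorter length for Atp5g1 would give fewer fragments, and such numbers were not computed.

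Reads of a gene and of a near-identical copy cannot always be told apart. The table lists 70 further features with the same KEGG ortholog as a member, of which 56 were at 0 in every sample and 7 had a mean of at least 1 FPKM. Such copies limit the values of Atp5g1 and Atp5g2 more than those of Atp5g3. Of the stretches of 150 bases in the coding sequence, 89.7% for Atp5g1 and 100% for Atp5g2 occur unchanged in a transcript of another annotated gene, and none do for Atp5g3. The copy of Atp5g1 is Gm10039, with 16.3, 8.92 and 11.6 FPKM in IVM and 7.03, 3.68 and 1.42 FPKM in IVO. The copy of Atp5g2 with a value is Gm10175, with 1.34, 6.52 and 21.2 FPKM in IVM and 9.52, 5.95 and 3.56 FPKM in IVO. Gm10175 was lowest in IVM replicate 1, the sample in which Atp5g2 was highest. Gene and copy summed gave 33.7, 20.5 and 36.1 FPKM for Atp5g2 in IVM and 16.3, 15.2 and 13.3 FPKM in IVO. The coefficient of variation in IVM was then 28.0% against 50.8% for Atp5g2 alone, and the log2FC was -0.93 (limma adjusted p = 0.0391). Summed with its copy, Atp5g1 had a log2FC of -1.38 (limma adjusted p = 0.00838). The copies were chosen after their values were seen. Gm10039 is listed at 411 bases and Gm10175 at 645, unlike the genes they were added to. A sum of FPKM is therefore not a sum of fragments, here or for copies of other members. Whether reads were shared was not tested.

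Of the peripheral stalk subunits, Atp5j was lower in IVO and Atp5h was not called. Atp5j encodes coupling factor 6 (F6), which links the stalk to the membrane part, and lies on chromosome 16 from 84614160 to 84633154. It had 40.1, 27.3 and 22.3 FPKM in IVM and 7.74, 2.07 and 6.48 FPKM in IVO. The IVO samples were all below the IVM samples, at 5.43 ± 2.98 against 29.9 ± 9.20 FPKM (SD, n = 3), and the log2FC was -2.36 (standard error 0.43, limma adjusted p = 0.00965). The IVO replicate 2 value was the lowest of any member and corresponds to about 18 fragments at the listed length, with an exact Poisson interval of 10.7 to 28.4. Exons of Atp5j share 1995 bases with Gabpa on the opposite strand, which the library kit does not distinguish, and Gabpa itself was at a mean of 5.65 FPKM in IVM and 2.13 FPKM in IVO. They also share 485 bases with Jam2 on that strand, which was at a mean of 10.03 FPKM in IVM and 7.60 FPKM in IVO, above Atp5j in IVO.

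Atp5h encodes subunit d of the stalk and lies on chromosome 11 from 115305263 to 115311342. It had 170, 133 and 115 FPKM in IVM and 139, 184 and 154 FPKM in IVO. These ranges overlapped, as for no other member, and the log2FC was 0.20 (standard error 0.21, limma adjusted p = 0.540), with a 95% interval from -0.29 to 0.69. A part of the coding sequence, 26.7% of its stretches of 150 bases, also occurs in Gm10250 and in an annotated transcript of Rpl37. With Gm10250, listed at 5.42 to 9.30 FPKM, added, the log2FC was 0.21. Exons of Atp5h share 472 bases with Kctd2 on the opposite strand, which was at a mean of 2.63 FPKM in IVM and 0.593 FPKM in IVO.

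Among the small membrane subunits, Atp5mpl, Atp5md, Atp5l and Atp5k were called lower in IVO, and Atp5j2 was lower by less than the fold threshold. Atp5mpl, a small proteolipid of the complex, had the highest level of all members in both groups and lies on chromosome 12 from 111925397 to 111933510. It had 2752, 2222 and 1687 FPKM in IVM and 365, 290 and 403 FPKM in IVO. The lowest IVM sample lay far above the highest IVO sample. The log2FC was -2.64 (standard error 0.22, limma adjusted p = 0.00106), and 1.99% of all tested genes had a lower one. By mean FPKM Atp5mpl ranked 110 among Ensembl genes in IVM and 641 in IVO.

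Atp5md encodes DAPIT, a small protein that takes part in dimer formation, and lies on chromosome 19 from 47071822 to 47079143. It had 419, 267 and 201 FPKM in IVM and 41.8, 21.2 and 45.1 FPKM in IVO. The fall was the largest among the members, with a mean 8.22 times as high in IVM and a log2FC of -3.01 (standard error 0.37, limma adjusted p = 0.00272). Atp5md is listed at 352 bases, the shortest of the members, so its value depends on fragment length. Its log2FC was -2.01 with the length trend removed, beside -1.99 for Atp5mpl. Atp5md shares 2827 exonic bases with Taf5 on the opposite strand, and Taf5 was at a mean of 26.2 FPKM in IVM and 35.6 FPKM in IVO. The copy Gm14539, which holds 89.3% of the stretches of 150 coding bases, had 0.98, 1.82 and 0.41 FPKM in IVM and 0.29, 13.95 and 5.71 FPKM in IVO. With this copy added the log2FC of Atp5md was -2.72. The copy is listed at 174 bases, shorter than the inferred mean fragment length in either group. How many fragments its values rest on was not computed.

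Atp5l encodes subunit g, another subunit of the dimer interface, and lies on chromosome 9 from 44800118 to 44832055. It had 411, 368 and 267 FPKM in IVM and 92.8, 100.5 and 107 FPKM in IVO, with a log2FC of -1.77 (standard error 0.20, limma adjusted p = 0.00215). The IVO samples were close together, with a coefficient of variation of 6.94% against 21.2% in IVM. Of its stretches of 150 coding bases, 53.8% occur in another annotated gene, mostly Gm10221, whose part in the value was not tested. Other listed copies, Gm4045 and Gm9391, reached at most 5.60 and 7.74 FPKM in a sample. Atp5k encodes subunit e, the partner of subunit g, and lies on chromosome 5 from 108581110 to 108582949. It had 86.4, 80.0 and 64.1 FPKM in IVM and 31.6, 36.1 and 38.8 FPKM in IVO. The groups were apart, and the log2FC was -1.09 (standard error 0.20, limma adjusted p = 0.00927). This call rested on a value near the fold threshold and was lost without IVM replicate 1, at a log2FC of -0.997.

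Atp5j2 encodes subunit f and lies on chromosome 5 from 145120505 to 145128872. It had 45.2, 38.4 and 29.3 FPKM in IVM and 23.0, 14.4 and 20.7 FPKM in IVO, and no IVO sample reached the lowest IVM sample. The log2FC of -0.93 passed the test on its p (standard error 0.26, limma adjusted p = 0.0392) and not the fold threshold. Without IVM replicate 3 it was -1.09 with an adjusted p of 0.0431 by limma, which would be called. Its copy Gm49408 added at most 3.45 FPKM in a sample.

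**Figure D3:**
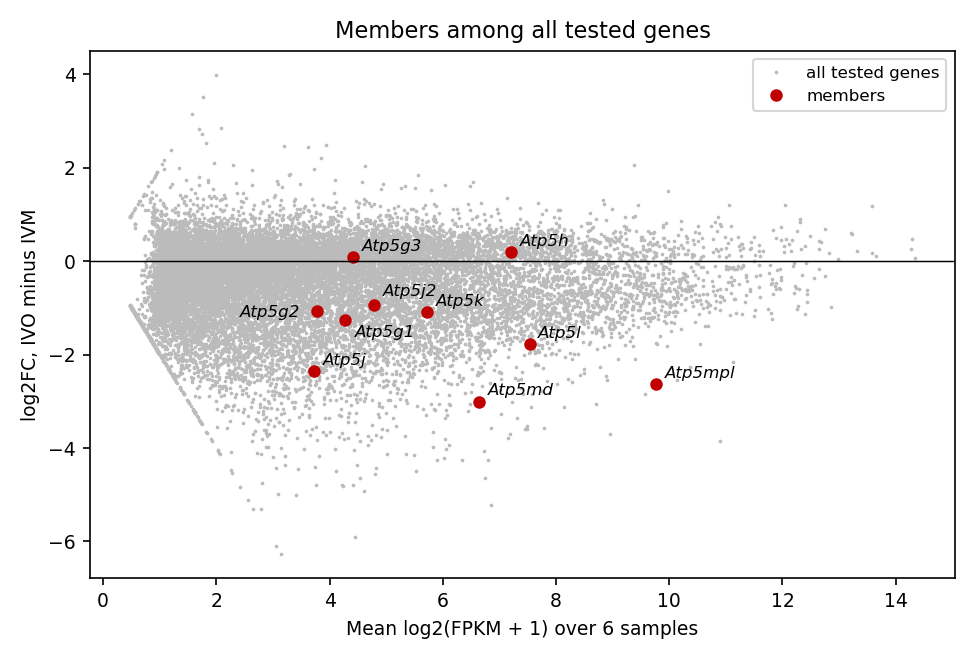
Log2FC (IVO minus IVM) against the mean log2(FPKM + 1) over 6 samples for the 18818 tested genes in grey and the 10 members in red. Atp5mpl and Atp5md stand below most genes of similar level, and Atp5g3 and Atp5h stand near 0.

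Across all 10 members, which all passed the filter, 6 were called lower in IVO by limma and none higher, against a background of 17.9% of all tested genes called lower and 0.606% called higher. Among the tested Ensembl genes, to which the members belong, 14.6% were called lower. At an unadjusted p under 0.05, 8 members were lower and 0 higher by limma, beside 31.4% and 5.56% of all tested genes. The groups did not overlap and IVO was lower for 8 members, where 32.6% of all tested genes did so. IVO was higher without overlap for Atp5g3, by a gap within counting error, as for 9.62% of all tested genes at any gap. By place in the complex, 1 of 3 c-ring genes, 1 of the 2 stalk genes among the members and 4 of 5 small membrane subunits were called lower. The median log2FC of the members was -1.18, beside -0.30 over all tested genes.

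Because the median of all genes was itself below 0, the scaling of the libraries shifts every member. Of all calls, 96.7% were lower in IVO as deposited, 84.4% after median-ratio scaling, 84.3% with all libraries scaled to the same sum, 59.0% after quantile normalization and 59.1% with each library's trend with gene length removed. The median log2FC of all genes was -0.04, -0.03, 0.17 and 0.16 in these 4 alternatives. Relative to the median of all genes as deposited, the log2FC was -2.34 for Atp5mpl, -0.97 for Atp5g1, -0.79 for Atp5k, 0.37 for Atp5g3 and 0.49 for Atp5h. Atp5j, Atp5md and Atp5mpl were called lower under all 13 alternatives and in all 6 fits that left out a sample. Atp5l lost its call when the length trend was removed together with the replicate block (log2FC -1.05, limma adjusted p = 0.0571), as did Atp5g1 there (adjusted p = 0.0584 by limma). With the correction for fragment length undone, 8 members were called lower, Atp5g2 (log2FC -1.31, limma adjusted p = 0.0232) and Atp5j2 (log2FC -1.02, limma adjusted p = 0.0189) being added. The members listed as shortest moved as well, Atp5md from -3.01 to -3.51 and Atp5k from -1.09 to -1.53. Atp5g1 and Atp5k lost their calls after median-ratio scaling, at -0.96 and -0.77, with the same sum, at -0.95 and -0.76, and after quantile normalization, at -0.76 and -0.58. With the length trend removed Atp5k was at -0.12 and Atp5g2 at -0.21. Atp5g3 was at 0.39 after median-ratio scaling, at 0.56 after quantile normalization and at -0.049 with the correction for fragment length undone. With the length trend removed it was at 0.63 (limma adjusted p = 0.04). Atp5h was at 0.52 after median-ratio scaling and at 0.72 after quantile normalization (limma adjusted p = 0.0361). It was at 0.80 with the length trend removed (limma adjusted p = 0.0402) and at 0.047 with the fragment-length correction undone. Neither gene reached the fold threshold under any alternative.

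**Figure D4:**
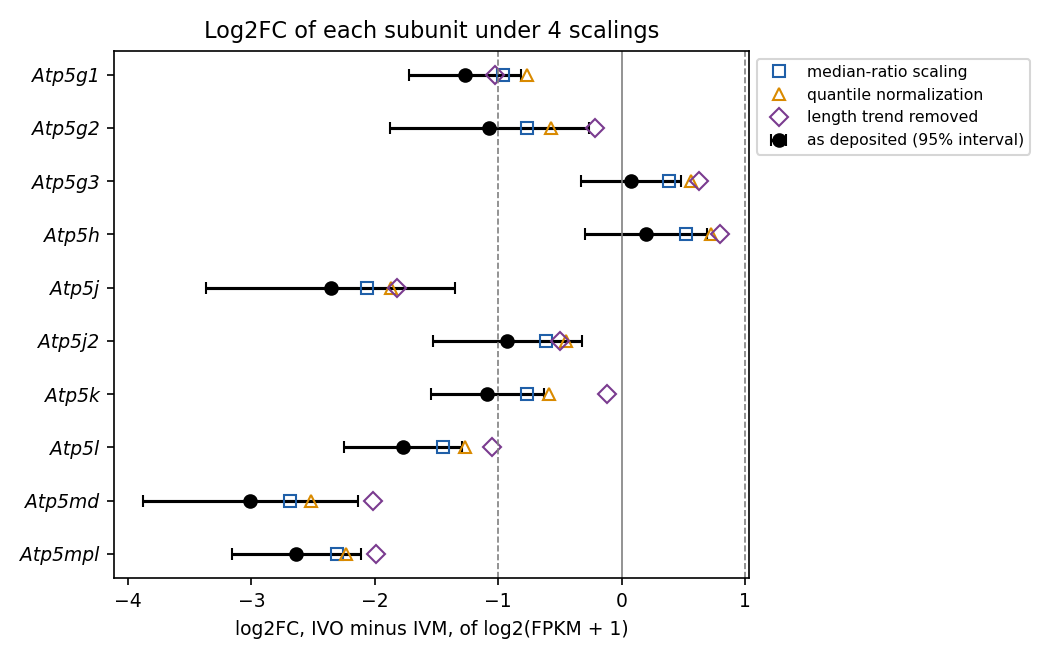
Log2FC (IVO minus IVM) of log2(FPKM + 1) for the 10 members as deposited, with the 95% interval of the limma fit, and under 3 other scalings as open symbols. Dashed lines mark the fold threshold of 1 on the log2 scale. Atp5j, Atp5l, Atp5md and Atp5mpl stay beyond it under all 4, and the 8 genes with a negative log2FC keep that sign.

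The order of the members by FPKM, a level per length, differed between the groups. In IVM the order was Atp5mpl, Atp5l, Atp5md, Atp5h, Atp5k, Atp5j2, Atp5j, Atp5g1, Atp5g2 and Atp5g3. The ranges of Atp5l and Atp5md overlapped, as did those of each pair of neighbours from Atp5j2 to Atp5g3. In IVO the order was Atp5mpl, Atp5h, Atp5l, Atp5md, Atp5k, Atp5g3, Atp5j2, Atp5g1, Atp5g2 and Atp5j. Here the ranges overlapped between Atp5md and Atp5k, between Atp5g3 and Atp5j2, and between Atp5g2 and Atp5j. The place of Atp5g1 in both orders depends on the length used for it. In approximate fragments at its listed 4715 bases it stood above Atp5g2, Atp5g3, Atp5j, Atp5j2, Atp5k and Atp5md in both groups. The places of Atp5md and Atp5k, listed at 352 and 371 bases, depend on length too. In such fragments they had 39 to 83 and 58 to 85 in IVO, below the 171 to 189 of Atp5g3 and the 181 to 290 of Atp5j2. In IVM Atp5md had 556 to 934, below the 997 to 1238 of Atp5h. The last place of Atp5g3 in IVM rests on IVM replicate 1, since Atp5g2 was below it in the other IVM samples. The 10 genes summed to 2448 to 4007 FPKM in IVM, of which Atp5mpl took 68.7% to 69.5%, and to 691 to 815 FPKM in IVO, of which it took 42.0% to 49.5%.

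Within IVM the same sample was highest for every member. By FPKM, IVM replicate 1 was the highest of its group for 10 of 10 members, beside 35.7% of all tested genes, and IVM replicate 3 was the lowest for 8. For Atp5g3 this lead, at 19.94 against 19.76 and 19.82 FPKM, lay within counting error. The coefficient of variation ranged from 0.462% to 50.8% in IVM, with a median of 21.2%, and from 5.72% to 54.8% in IVO, with a median of 15.3%. IVM replicate 1 also had the lowest inferred depth, 16500000 fragments, and the part of this in its values was not tested.

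The 16 other genes of the ATP synthase, for the F1 head, the rest of the stalk, the mitochondrially encoded subunits, the inhibitor and assembly factors, gave 5 genes called lower, 2 called higher and 9 not called, with a median log2FC of -0.54. Of the direct partners of the members, the OSCP subunit gene Atp5o, at the top of the stalk, fell from 32.6, 23.8 and 27.3 FPKM in IVM to 4.96, 5.02 and 5.14 FPKM in IVO (log2FC -2.25, limma adjusted p = 0.00120). Atp5pb, subunit b of the stalk, was at 52.6 ± 9.79 FPKM in IVM and 39.7 ± 3.30 FPKM in IVO (SD, n = 3), with a log2FC of -0.38 that did not pass (limma adjusted p = 0.215). The mitochondrial genes mt-Atp6 and mt-Atp8, which encode subunit a beside the c-ring and a small neighbour of it, were higher in IVO. The gene mt-Atp6 had 6757, 9871 and 8392 FPKM in IVM and 19118, 21542 and 15516 FPKM in IVO (log2FC 1.17, limma adjusted p = 0.00599). The log2FC of mt-Atp8 was 1.21 (limma adjusted p = 0.00908), and since both genes overlap on the mitochondrial genome their reads are not fully separable.

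Further from the membrane, Atp5e, the epsilon subunit of the central stalk, had a log2FC of -2.62 (limma adjusted p = 0.00134). Atpif1, the inhibitor of ATP hydrolysis, was at -1.26 (limma adjusted p = 0.00999). The assembly factors Atpaf1 and Tmem242 were at -1.83 (limma adjusted p = 0.0258) and -1.09 (limma adjusted p = 0.0366). The count of 5 genes fell to 2, Atp5e and Atp5o, after median-ratio scaling, after quantile normalization and with the length trend removed. It fell to 3 without IVM replicate 1, IVM replicate 2, IVO replicate 1 or IVO replicate 2. After quantile normalization mt-Atp6 lost its call, at 0.90, and Atp5a1 was called higher (log2FC 1.03, limma adjusted p = 0.0219), so 2 genes were called higher. With the length trend removed 3 genes were called higher, Fmc1 being added (log2FC 1.14, limma adjusted p = 0.0109).

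**Figure D5:**
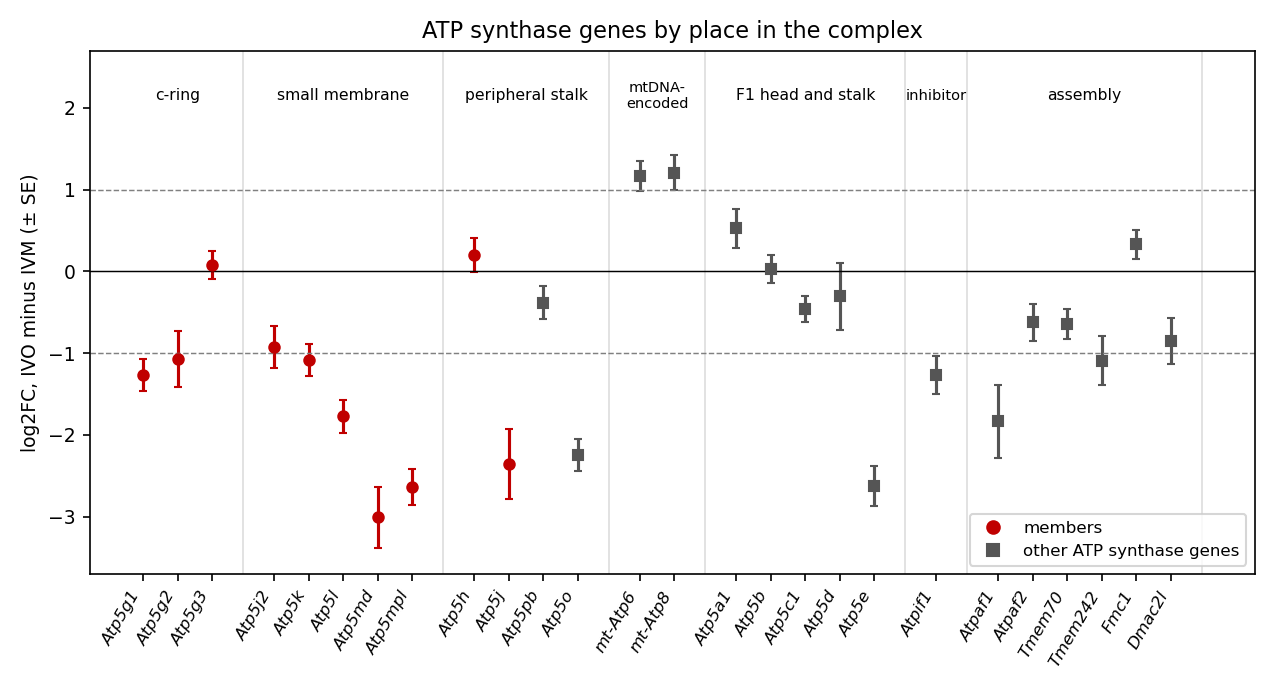
Log2FC (IVO minus IVM) with its standard error for the 10 members (red circles) and 16 other ATP synthase genes (grey squares), grouped by place in the complex. Dashed lines mark the fold threshold, beyond which mt-Atp6 and mt-Atp8 are the genes that lie above.

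The genes most alike to each c-ring paralog were found among the named Ensembl genes tested, by the root mean square distance between log2(FPKM + 1) profiles over the 6 samples, each centred on its mean. For Atp5g1 they were Pfdn5 (0.0561), Rps18-ps6 (0.0650) and Coq7 (0.0673). For Atp5g2 they were Gm29103 (0.131), Arhgap19 (0.151) and Urm1 (0.154), at distances larger than for the other paralogs. For Atp5g3 they were Col6a3 (0.0317), Klhl9 (0.0409) and Mib1 (0.0428).

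All 10 genes lie on the minus strand of 8 chromosomes and encode short proteins of 58 to 161 residues. Promoters, from 250 bases before to 50 after the annotated start, were found for 9 of the 10 members in RefSeq (assembly GRCm38.p6), and those of the c-ring genes and of Atp5md, the member with the lowest log2FC, are shown. Capitals mark matches, on either strand, to the letters of 5 motifs given after the sequences.
Atp5g1 (chr11:96075582-96075881, minus strand): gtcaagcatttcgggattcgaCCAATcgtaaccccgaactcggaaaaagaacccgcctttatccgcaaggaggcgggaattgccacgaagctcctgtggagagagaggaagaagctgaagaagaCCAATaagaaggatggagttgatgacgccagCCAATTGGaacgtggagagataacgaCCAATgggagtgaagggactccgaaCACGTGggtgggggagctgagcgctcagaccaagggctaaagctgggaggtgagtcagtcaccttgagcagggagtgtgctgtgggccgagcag
Atp5g2 (chr15:102670998-102671297, minus strand): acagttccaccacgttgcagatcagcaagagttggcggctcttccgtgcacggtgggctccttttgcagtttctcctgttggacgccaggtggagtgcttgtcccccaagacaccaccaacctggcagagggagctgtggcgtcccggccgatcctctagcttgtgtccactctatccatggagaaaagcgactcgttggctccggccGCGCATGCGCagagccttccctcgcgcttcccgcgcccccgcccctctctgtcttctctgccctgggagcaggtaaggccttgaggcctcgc
Atp5g3 (chr2:73911277-73911576, minus strand): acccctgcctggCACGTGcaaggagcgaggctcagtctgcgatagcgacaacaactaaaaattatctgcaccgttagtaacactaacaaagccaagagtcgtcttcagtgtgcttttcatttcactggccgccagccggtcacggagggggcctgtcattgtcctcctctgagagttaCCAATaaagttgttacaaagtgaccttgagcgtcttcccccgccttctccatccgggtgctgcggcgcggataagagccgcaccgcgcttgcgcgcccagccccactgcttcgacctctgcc
Atp5md (chr19:47090598-47090897, minus strand): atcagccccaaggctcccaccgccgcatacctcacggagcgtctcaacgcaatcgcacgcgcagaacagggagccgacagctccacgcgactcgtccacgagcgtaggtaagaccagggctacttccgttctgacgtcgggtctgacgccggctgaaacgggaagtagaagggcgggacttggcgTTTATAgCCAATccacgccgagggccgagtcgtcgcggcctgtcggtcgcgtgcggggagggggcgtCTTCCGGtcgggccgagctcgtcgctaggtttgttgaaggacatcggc
The letters GCGCATGC of the NRF1 motif occurred in 2.71% of 32851 promoters and in those of Atp5g2, Atp5k and Atp5l. The letters CCGGAAG of the ETS family occurred in 8.86% of all promoters and in those of Atp5h, Atp5j, Atp5k, Atp5l and Atp5md. For Atp5j this was the promoter at chr16:84834927-84835226. Another promoter of Atp5j, at chr16:84835576-84835875, matched none of the motifs, and a member was counted if any of its promoters matched. The E-box letters CACGTG occurred in 7.15% of all promoters and in those of Atp5g1, Atp5g3 and Atp5l, and the TATA letters TATAAA in 13.6% and in those of Atp5l and Atp5md. CCAAT occurred in 37.4% of all promoters and in 6 of the 9 members, Atp5g1, Atp5g3, Atp5h, Atp5j2, Atp5l and Atp5md. The promoter of Atp5g1 held it at 5 places, one pair of which overlap on opposite strands. The E-box and CCAAT were both present in Atp5g1, which was lower in IVO, and in Atp5g3, which was not called. A match is a description of these letters and does not show that a factor binds.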

How the data were processed

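RNA-seq of 3 IVM and 3 IVO pools was analysed from the values the authors deposited. The authors made full-length cDNA with SMART-Seq v4, prepared libraries with Nextera XT, sequenced paired ends, aligned them to GRCm39 with Hisat2 (2.1.0) and deposited FPKM from RSEM (1.3.3), per the submitters' processing notes, which also name DESeq2 (1.24.0). FPKM are not counts, so no count test was run. Groups came from the sample titles.

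The fit used limma 3.58.1 in R 4.3.3 (lmFit, eBayes with trend) on log2(FPKM + 1), with group alone, over 18818 genes whose mean FPKM was 1 or more. P-values are two-sided and adjusted over all tested genes. Tested on simulated data for IVO against IVM, the fit recovered 146 of 200 genes changed by a log2FC of 2 among 18818, with 6 false calls. The changed genes were drawn from those above a set level, in either direction at random, with independent noise. The data differ from this, since most calls were lower in IVO, so the recovery does not carry over to them. The p-values measure the spread between pools. Depth was inferred from 13860 genes with 1 transcript, where 73.1% to 74.6% of low values were whole fragment numbers within 0.1. Tables were made with Python 3.11.15 and pandas 2.3.3.

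All members are named. Of the other ATP synthase genes, those called and the membrane partners are named. For each c-ring gene the 3 most alike genes are named, as are features with the same KEGG ortholog and a mean FPKM of at least 1. Members, lists and tests were chosen with earlier results of these data known. Alternatives were a pseudocount of 0.1, other filters and scalings, eBayes without trend, the length trend removed (lowess, span 0.3), a replicate block, Ensembl genes only and leaving out each sample. Undoing the fragment-length correction and summing copies were added after seeing the data.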

Additional observations from a re-analysis of the deposited data

How the results depend on the processing

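Of 342 comparisons of a result with an alternative, 308 were labelled as unchanged. For a member this meant the same sign and side of the threshold, and for a count or a median a tolerated range. For c-ring shares and ratios it meant the sign alone. Other filters, Ensembl genes only, eBayes without trend and the replicate block cannot alter a member's log2FC, only its adjusted p. The block also leaves the c-ring differences as they were, and multiplying by the listed length alters the log2 ratios only through the pseudocount. The number therefore overstates how far the results were tried. The median log2FC of the members, -1.18, was -0.86 after median-ratio scaling, -0.85 with the same sum, -0.67 after quantile normalization, -0.76 with the length trend removed, with or without the replicate block, and -1.42 with the fragment-length correction undone. It ran from -1.28 to -1.11 when a sample was left out. The 6 members called lower became 3 when the length trend was removed together with the replicate block, 4 after median-ratio or quantile normalization and with the same sum, 8 with the fragment-length correction undone, and 5 to 7 when a sample was left out. The 5 other ATP synthase genes called lower became 2 with the length trend removed, with or without the replicate block, after median-ratio scaling and after quantile normalization, 3 without the filter on low values, with the replicate block and with the same sum, and 3 to 4 when a sample was left out. The cause of these changes was not tested.

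Of all tested genes, the calls lower and higher were 3366 and 114 as deposited, 2102 and 388 with median-ratio scaling, 2131 and 397 with the same sum, 1580 and 1097 with quantile normalization, 1325 and 918 with the length trend removed, 699 and 403 with that and the replicate block, and 2547 and 81 without the filter. The sign reversed for the log2FC of Atp5g3, -0.049 with the fragment-length correction undone, and for the log2 ratio of Atp5g1 to Atp5g2, whose difference ran from -0.52 to 0.027 when a sample was left out.

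The replicate numbers did not pair the samples: the deviations of same-numbered samples from their group means correlated across genes at -0.06, -0.02 and -0.11. With the replicate block as a term, 2899 genes were called lower and 92 higher, and each member was on the same side of the threshold as without it.

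Depth limits Atp5g2 and Atp5j in IVO most, at about 21 to 34 and 18 to 67 fragments by listed length. Groups of 3 samples were too small for a search for outlying samples.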
